A study of Mus musculus with 9 samples.

Results

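The genes described here make cholesterol or govern how much of it a cell holds: the enzymes of sterol synthesis, the proteins that control the transcription factor SREBP2, and the carriers that move sterols within, into and out of cells. They were taken by gene symbol from a list of pathway genes, not by their values, and all 31 were found among the 56748 genes of the deposited table, as 18 genes of synthesis and 13 of regulation, transport, uptake and efflux. Liver RNA came from 9 C57BL/6J mice, 3 each in groups labelled Control, DSS and Indirubin, and the study's methods give an age of 7 to 8 weeks for its wild-type mice. DSS mice received 3 cycles of 1.8% dextran sulfate sodium (DSS), an agent that injures the colon, in drinking water for 1 week per cycle, with a daily gavage of 200 μL of sterile water. Indirubin mice received the same DSS cycles and indirubin, a red indole pigment of the herbal drug indigo naturalis, at 1 g/kg/day in the same volume. Control mice are labelled as given water and had the daily water gavage, but the design text introduces colitis before it divides the mice into groups, which leaves it uncertain whether these animals were free of it. All mice carried the same unmodified genotype, the material was whole liver and not sorted cells, and no source used here says whether the 3 mice of a group shared a cage.

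In the liver, cholesterol is built from acetyl-CoA through mevalonate, farnesyl pyrophosphate, squalene and lanosterol. When sterol in the endoplasmic reticulum is scarce, SCAP escorts SREBP2 to the Golgi, where it is cut, and the released fragment enters the nucleus and switches on most genes of the pathway. When sterol is plentiful, INSIG proteins hold SCAP in the endoplasmic reticulum, and oxysterols activate LXR, which raises the export genes Abca1, Abcg5 and Abcg8.

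Promoter sequences show the kind of elements that the SREBP2 pathway is read through, and RefSeq windows on build GRCm38.p6, from 250 bases before to 50 bases after a gene's start, were found for 24 of the 31 genes. The sterol regulatory element, searched as TCACNCCAC on both strands, lay in the window of 1 gene, Hmgcs1, which is 3.23% of the windows of these genes, and in 1.24% of all 32851 windows. Since some genes have several starts, the 24 genes had 31 windows. CCAAT, the core of the NF-Y site, was present on either strand in 67.7% of these 31 windows (21 genes) and in 37.4% of all windows. The E-box CACGTG, which reads the same on both strands, was present in 22.6% of the 31 windows, from 6 genes (Abca1, Dhcr7, Hsd17b7, Insig1, Sc5d and Scap), and in 7.15% of all windows. GGGCGG, the GC box, was present in 74.2% of the 31 windows (20 genes) and in 35.7% of all windows. The sterol regulatory element and the E-box share the letters CAC, and the GC box shares GG with the reversed CCAAT, so that matches can overlap. A match describes letters, not binding. The stretches below lie before the start of Hmgcs1, shown because it holds the sterol regulatory element, and of Sc5d, Insig1 and Dhcr7, shown because their levels lead the results on indirubin. They are written 5′ to 3′ on the gene's strand, with the sterol regulatory element, the E-box and the NF-Y core (ATTGG where it lies on the other strand) in capitals.
Hmgcs1, chr13:119690104-119690320, plus strand: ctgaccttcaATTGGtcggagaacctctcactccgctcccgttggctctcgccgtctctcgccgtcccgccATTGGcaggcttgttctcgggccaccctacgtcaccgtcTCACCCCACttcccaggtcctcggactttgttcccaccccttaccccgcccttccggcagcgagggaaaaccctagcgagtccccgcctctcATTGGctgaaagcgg
Sc5d, chr9:42264310-42264408, minus strand: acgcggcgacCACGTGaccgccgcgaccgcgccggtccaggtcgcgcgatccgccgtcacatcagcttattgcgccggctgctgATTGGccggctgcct
Insig1, chr5:28071186-28071326, plus strand: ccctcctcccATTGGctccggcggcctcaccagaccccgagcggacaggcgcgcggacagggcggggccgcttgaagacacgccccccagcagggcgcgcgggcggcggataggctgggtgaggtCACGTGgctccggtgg
Dhcr7, chr7:143823225-143823250, plus strand, 1 of its 3 listed starts: ctgtgatgaaCACGTGgcaaaaagca

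Each library held 6514863 to 7944684 counts, but genes of the mitochondrial genome took 71.58% to 91.27% of them, and nuclear genes had 569044 to 2132208. The 31 sterol genes had 1235 to 5635 counts per library together. DSS-2 showed the fewest detected genes, 8302, although it was not the shallowest library, and it had no count of Mvk, Srebf2, Scap, Npc1 or Soat2. Detected genes were most numerous in Indirubin-1 to Indirubin-3, at 14467, 17389 and 15201, beside up to 13645 in the DSS and 13209 in the Control mice. Hepatocyte markers were present in full in every library, with all 8 of 8 at nonzero counts and a summed level of 10286 to 24487 normalized CPM. The single markers did not move together. Ttr was lowest in Indirubin-2 and Indirubin-3, at 164 and 199 beside 480 to 1110 in the other 7 libraries. Alb and Serpina1a were lowest there too. Tat was highest in these 2 libraries, at 276 and 266 beside 55.5 to 175, and the remaining hepatocyte markers were not lowest there. Markers of pancreatic acinar cells (11 genes) summed to 832 and 1057 normalized CPM in Indirubin-2 and Indirubin-3 and to 0 to 22.7 in the other 7 libraries, and made up 0.532% and 0.691% of the nuclear counts of those 2 libraries. Neutrophil markers (7 genes) were also highest there, at 239 and 85.9 normalized CPM, beside 24.4 in Indirubin-1, 11.5 to 17.4 in DSS and 1.17 to 3.65 in Control mice. Because Indirubin-2 and Indirubin-3 stood apart from Indirubin-1 in these markers, levels of the sterol genes in the comparison of Indirubin with DSS mice are given for single libraries or as ranges. In whole liver, fewer cells of a type and less RNA per cell cannot be told apart.

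Levels are normalized CPM, which are counts scaled to a common library total with TMM over all 9 libraries, given as mean ± SD of 3 mice where groups are summarized. Per kilobase of gene length, averaged over the 9 libraries, Lcat was the most abundant sterol gene at 41.1 normalized CPM per kb. Insig1 followed at 8.72, Hmgcs1 at 7.51, Ebp at 6.59 and Sc5d at 6.00 normalized CPM per kb, and Fdps had the lowest average at 0.213. The order of Insig1, Hmgcs1, Ebp and Sc5d did not exceed their spread, since within the Control mice they lay at 10.004 ± 2.70, 9.14 ± 3.05, 8.01 ± 1.36 and 8.33 ± 3.54 (SD, n = 3). The averages pool groups that differed, and only the place of Lcat was the same in all 3. In the indirubin-treated mice Hmgcs1 ranked 2 and Npc2 ranked 3 of the 31 genes per kilobase, with Insig1 at rank 5, Ebp at 7 and Sc5d at 8. The lowest mean was that of Fdps in the Control, Npc1 in the DSS and Lss in the indirubin-treated mice. The heat map of all 31 genes in the 9 libraries shows the pattern on which the following comparisons rest.

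**Figure D1:**
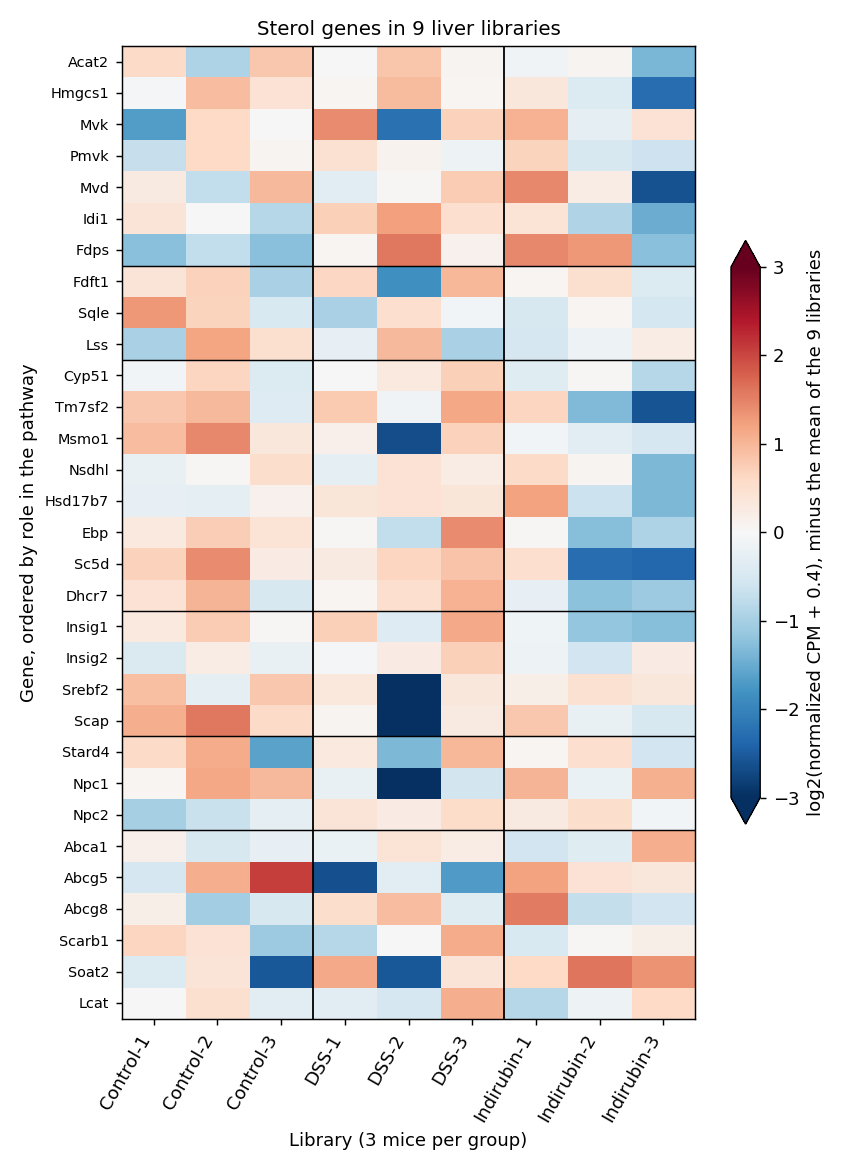
Each cell gives the log2 of normalized CPM plus 0.4 for a sterol gene in a library, minus the gene's mean over the 9 libraries, with genes ordered from mevalonate synthesis (top) to efflux and esterification (bottom). Blue cells gather in Indirubin-2 and Indirubin-3 for Tm7sf2, Ebp, Sc5d, Dhcr7 and Insig1, and in DSS-2 for Srebf2, Scap and Npc1, which had no count there.

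The comparison of Indirubin with DSS mice addresses what indirubin did in the liver of mice that all had DSS. The late enzymes of cholesterol synthesis, from lanosterol onward, had the lowest median of the role groups: 8 of 8 were lower with indirubin and their median log2 fold change was -0.97, where the median of all 9117 tested genes was 0.15. Without Indirubin-1 the median of these 8 genes was -1.75. Over the whole synthesis pathway 16 of 18 genes were lower, with a median of -0.28 that was -0.92 without Indirubin-1 and -0.68 when mice of the same number were blocked. Over the 31 genes, all of which passed the filter on low counts, 22 were lower and 9 higher. No sterol gene passed an adjusted p of 0.05, a background of 0% of all tested genes in either direction (quasi-likelihood test of edgeR, adjusted after Benjamini and Hochberg over all genes tested). The Wald test of DESeq2 passed none either, in this or the following comparisons. At an unadjusted p under 0.05 in edgeR, 3 of the 31 genes were lower and 0 higher, where 3.22% of all tested genes were lower and 4.45% higher. The groups did not overlap for 2 lower and 2 higher sterol genes, where 5.92% and 10.5% of all tested genes were lower and higher without overlap.

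Sc5d, the C5-desaturase that makes 7-dehydrodesmosterol and 7-dehydrocholesterol (ENSMUSG00000032018, chromosome 9, 42162891 to 42175552 on GRCm39), set Indirubin-2 and Indirubin-3 apart from every other library. It lay at 31.6, 4.18 and 3.97 normalized CPM in Indirubin-1 to Indirubin-3, at 26.6, 34.7 and 39.9 in the DSS mice and at 35.6, 59.7 and 26.3 in the Control mice. These low values rest on 51 and 46 counts in libraries of 1910420 and 1771035 nuclear counts, beside 108 to 437 counts in the other 7. Indirubin-1 was thus inside the range of the DSS mice and the groups overlapped. Against DSS the log2 fold change was -1.37 (SE 0.70, adjusted p = 0.723 in edgeR). Without Indirubin-3 the log2 fold change of Sc5d was -0.93. Without Indirubin-1 the log2 fold change of Sc5d was -3.15 (SE 0.44, adjusted p = 0.00328 in edgeR), and it was then the single sterol gene to pass, where 0.703% of 10817 tested genes were lower at that threshold. The acinar and neutrophil marker sums moved with these 2 libraries, and their part in the Sc5d values was not tested. Over all 3 indirubin-treated mice, endothelial markers (6 genes) were higher than in DSS mice, at 41.99 to 54.0 beside 20.4 to 32.1 normalized CPM. The acinar and neutrophil sums were higher as well, with Indirubin-1 at 10.3 and 24.4 beside up to 3.08 and 17.4 in the DSS mice. Cholangiocyte markers summed lower, at 4.77 to 8.28 beside 8.59 to 13.3. This came mainly from Spp1, at 1.29, 4.92 and 0.605 beside 5.10, 11.9 and 6.67. Sox9, at 2.57, 2.95 and 0.518 beside 2.13, 1.42 and 0.0914, and Krt19 were not lower, and Krt7 and Epcam did not exceed 1.21. The part of these markers in the differences between these groups was not tested.

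Dhcr7, the reductase of the last step from 7-dehydrocholesterol to cholesterol (ENSMUSG00000058454, chromosome 7, 143376882 to 143402147), lay at 6.43, 3.03 and 3.37 normalized CPM with indirubin and at 8.06, 10.99 and 16.1 in the DSS mice. All 3 indirubin-treated mice were below all 3 DSS mice. Its log2 fold change was -1.47 (SE 0.51, unadjusted p = 0.0139, adjusted p = 0.500 in edgeR), and with each library left out in turn it lay between -1.97 and -1.17. Ebp, the isomerase that shifts the sterol double bond from C8 to C7 (ENSMUSG00000031168, chromosome X, 8051568 to 8059751), lay at 13.2, 5.16 and 6.65 normalized CPM with indirubin and at 13.4, 7.62 and 35.4 in the DSS mice. The groups overlapped, and DSS-3 was far above the rest. Its log2 fold change of -1.19 (SE 0.59) was -0.35 without DSS-3 and -1.77 without Indirubin-1.

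Tm7sf2, a C14-reductase (515 counts in all), lay at 9.73, 2.21 and 0.691 normalized CPM with indirubin and at 10.9, 5.67 and 14.3 in the DSS mice. As for Sc5d, the low values were those of Indirubin-2 and Indirubin-3, and the log2 fold change moved from -1.34 (SE 0.78) to -2.91 without Indirubin-1 (adjusted p = 0.0941 in edgeR) and to -0.81 without Indirubin-3. Its counts carry a further limit, since Tm7sf2 overlaps Vps51 on the same strand. Cyp51, the lanosterol 14-demethylase, was at 8.26, 10.98 and 5.70 normalized CPM with indirubin and at 10.9, 13.3 and 17.8 in the DSS mice, with a log2 fold change of -0.75 (SE 0.44) and overlapping groups. Msmo1, the C4-methyl oxidase, had 8.77, 0.886 and 12.9 normalized CPM in the DSS mice and 7.34, 6.23 and 5.36 with indirubin, so that DSS-2 lay below every indirubin-treated mouse and the other 2 above. Nsdhl and Hsd17b7, which complete the removal of the C4 methyl groups, differed among the indirubin-treated mice. Nsdhl lay at 5.32, 3.69 and 1.12 normalized CPM with indirubin and at 2.73, 4.78 and 4.11 in the DSS mice. Hsd17b7 lay at 6.06, 1.39 and 0.691 with indirubin and between 3.20 and 3.37 in the DSS mice. For both genes Indirubin-1 was the highest of the 9 libraries, and the log2 fold change of Hsd17b7, -0.29 (SE 0.90), was 0.03 without Indirubin-2 and 0.18 without Indirubin-3.

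Of the 7 genes of the mevalonate steps, Idi1 was the lowest relative to DSS. Idi1, the isomerase of isopentenyl diphosphate (ENSMUSG00000058258, chromosome 13, 8935537 to 8942487), lay at 6.98, 2.54 and 1.56 normalized CPM with indirubin and at 8.65, 12.6 and 7.50 in the DSS mice. The groups did not overlap, although Indirubin-1 was close to DSS-3. Its log2 fold change was -1.40 (SE 0.62, unadjusted p = 0.0415, adjusted p = 0.628 in edgeR), and it was -2.32 without Indirubin-1 and -1.02 without Indirubin-3. Processed pseudogenes of Idi1 held 49 and 40 counts in all, so reads shared with them are uncertain. Hmgcs1, the cytosolic HMG-CoA synthase (ENSMUSG00000093930, chromosome 13, 120151915 to 120169796), lay at 37.5, 22.3 and 5.79 normalized CPM with indirubin and at 30.7, 57.4 and 30.7 in the DSS mice. Indirubin-3 had the lowest Hmgcs1 level of the 9 libraries, while Indirubin-1 lay inside the DSS range, and the log2 fold change of -0.86 (SE 0.58) was -1.60 without Indirubin-1 and -0.40 without Indirubin-3.

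Acat2, Mvk, Pmvk, Mvd and Fdps had overlapping groups, at unadjusted p from 0.241 to 0.916 in the edgeR test. Acat2 ranged from 1.81 to 5.74 normalized CPM with indirubin and from 5.33 to 9.92 in the DSS mice. Mvk, mevalonate kinase, ranged from 1.15 to 3.49 and from 0 to 4.62 in the same order, and Pmvk, the next kinase, from 4.32 to 11.2 and from 6.12 to 9.48. In all 3 genes the ranges of the groups crossed. Acat2 is nearly identical to Acat3, which had 1060 counts, so the split of reads between them is uncertain. Mvd, the decarboxylase, was at 6.24, 2.46 and 0 normalized CPM with indirubin and at 1.54, 2.13 and 3.75 in the DSS mice. Among the genes from squalene to lanosterol, Fdft1 lay at 6.43, 8.69 and 4.49 normalized CPM with indirubin and at 9.60, 1.42 and 12.5 in the DSS mice. Sqle lay at 3.12, 4.75 and 3.02 with indirubin and at 2.13, 6.56 and 4.30 in the DSS mice, and Lss, lanosterol synthase, at 2.02, 2.70 and 3.63 against 2.49, 6.38 and 1.37. The 3 genes had lower means with indirubin, by less than the spread between mice. Fdft1, squalene synthase, overlaps Ctsb on the other strand, which had 6463 counts beside its 531, and whether the counting used strand is not given in the sources used here.

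Insig1, which retains SCAP and SREBP2 in the endoplasmic reticulum and is itself a target of SREBP2 (ENSMUSG00000045294, chromosome 5, 28276361 to 28283660), had the clearest difference among the regulators. It lay at 21.5, 10.3 and 9.50 normalized CPM with indirubin and at 38.6, 17.9 and 52.0 in the DSS mice. Indirubin-1 was above DSS-2, so the groups overlapped, while Indirubin-2 and Indirubin-3 were below every other library. The log2 fold change was -1.40 (SE 0.50, unadjusted p = 0.0150, adjusted p = 0.500 in edgeR) and it lay between -1.97 and -1.05 with each library left out. Insig2, the second retention protein, lay at 15.6, 11.5 and 20.7 normalized CPM with indirubin and at 17.0, 20.7 and 29.0 in the DSS mice, with overlap. Srebf2, the gene of SREBP2, lay at 3.49, 4.34 and 3.97 normalized CPM with indirubin and at 3.91, 0 and 3.93 in the DSS mice. Apart from DSS-2, with no count, these mice lay between 3.49 and 4.34. Scap was at 8.63, 4.02 and 3.28 normalized CPM with indirubin and at 5.10, 0 and 5.85 in the DSS mice, again with the lowest value in DSS-2.

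**Figure D2:**
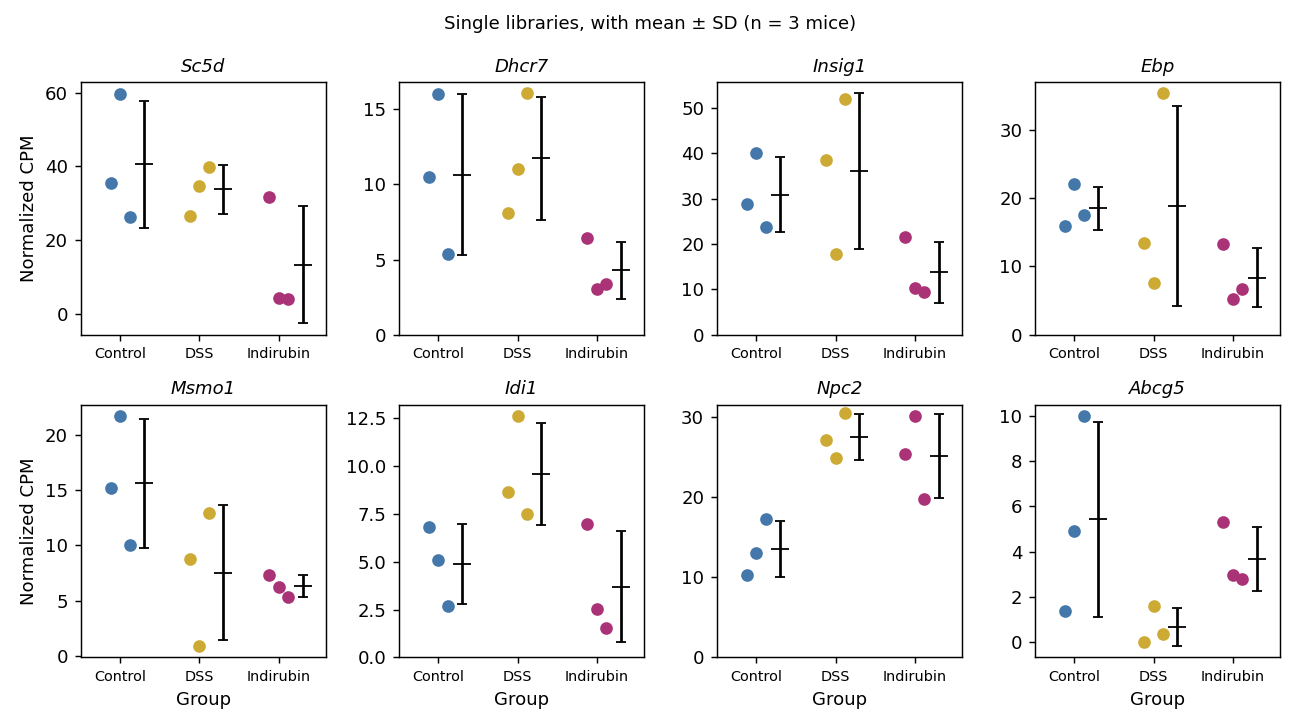
Points give normalized CPM of single mice for 8 sterol genes in the Control, DSS and Indirubin groups, and the bar beside them the mean ± SD of 3 mice. Sc5d at 4.18 and 3.97 in Indirubin-2 and Indirubin-3 lies far below the other 7 libraries, and Npc2 in the Control mice lies below every mouse of the other groups.

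The 2 genes that were higher with indirubin than with DSS without overlap between the groups were Abcg5 and Npc1, of efflux and transport. Abcg5, which with Abcg8 forms the canalicular sterol exporter (ENSMUSG00000040505, chromosome 17, 84965662 to 84990439), was read from few counts, 0, 9 and 4 in the DSS mice beside 29, 36 and 32 after indirubin. On the scale of normalized CPM this was 5.32, 2.95 and 2.76 against 0, 1.59 and 0.366, without overlap. Abcg5 passed the filter on low counts through the indirubin-treated mice alone, with 3 libraries above its limit there and 0 in the DSS group, so a difference was built into its being tested. The log2 fold change was 2.54 (SE 1.26, adjusted p = 0.702 in edgeR), and it was 4.07 without DSS-2 and 1.82 without DSS-1. Its partner Abcg8, at 6.24, 0.983 and 1.12 normalized CPM with indirubin and 2.84, 3.90 and 1.37 in the DSS mice, did not show the same order, and the 2 genes overlap on opposite strands.

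Npc1, which exports cholesterol from the lysosome, had 41, 37 and 91 counts with indirubin and 25, 0 and 25 in the DSS mice. At 7.53, 3.03 and 7.86 normalized CPM against 2.96, 0 and 2.29 the groups did not overlap, with the margin between Indirubin-2 and DSS-1 small. The log2 fold change of 1.77 (SE 0.96, adjusted p = 0.754 in edgeR) was 1.15 without DSS-2. Npc2, its lysosomal partner, and Stard4, a cytosolic sterol carrier, overlapped between the groups. Npc2 lay between 19.8 and 30.2 normalized CPM with indirubin and between 24.8 and 30.4 in the DSS mice, and Stard4 at 6.24, 8.77 and 3.89 against 7.47, 2.13 and 12.4. Abca1, Scarb1, Soat2 and Lcat overlapped between these groups, at unadjusted p from 0.311 to 0.853 in the edgeR test. Scarb1, the HDL receptor, ranged from 12.3 to 19.2 normalized CPM with indirubin and from 9.13 to 36.9 in the DSS mice, Abca1 from 5.69 to 19.0 and from 7.59 to 11.7, and Soat2 from 3.12 to 6.72 and from 0 to 4.74. Lcat, which esterifies cholesterol on plasma HDL, ranged from 27.7 to 76.6 normalized CPM with indirubin and from 35.8 to 109 in the DSS mice.

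Against the DSS mean, the median of the 8 genes from lanosterol to cholesterol lay at -0.03, -1.27 and -1.54 log2 units in Indirubin-1 to Indirubin-3 and at -0.26, -0.04 and 0.43 in the DSS mice. Indirubin-1 was thus within the DSS range and the other 2 were below it. For the 7 mevalonate genes the same medians were 0.54, -0.24 and -1.85 with indirubin, so that Indirubin-3 was low and Indirubin-1 above every DSS mouse. The median of 9713 genes tested over all libraries lay at 0.19, 0.32 and 0.28 in these mice. Nuclear totals also separated them, at 701804 counts in Indirubin-1 beside 1910420 and 1771035, and the part of depth in the difference among these mice was not tested. The share of nuclear counts on the 31 genes was 0.157% and 0.162% in Indirubin-2 and Indirubin-3, and 0.217% to 0.275% in the other 7 libraries.

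**Figure D3:**
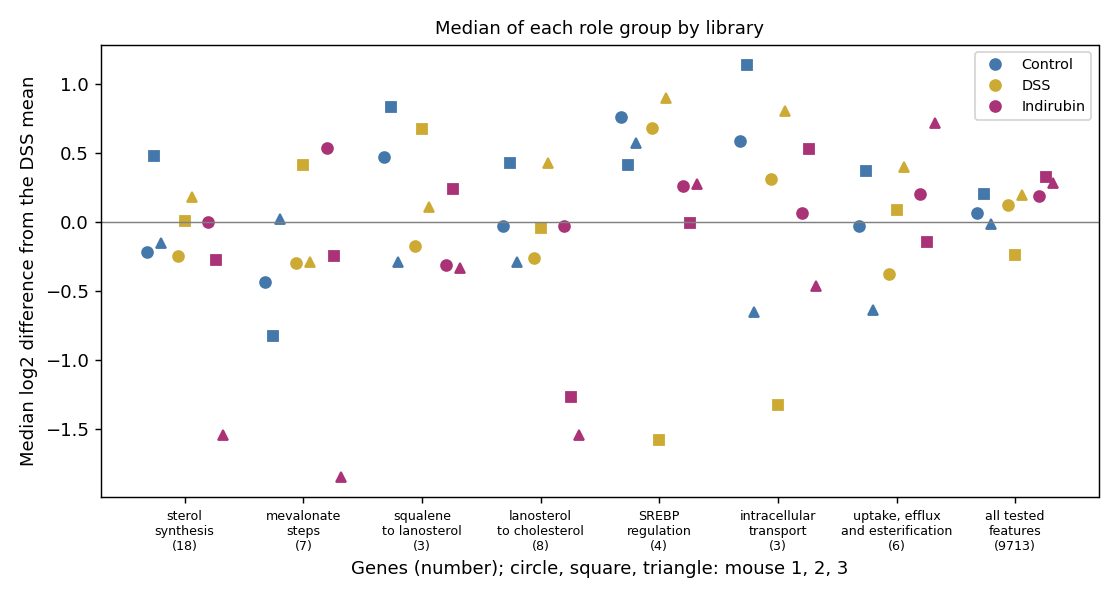
For each role group, points give the median over its genes of the log2 difference from the DSS mean in each library, coloured by group, with circle, square and triangle for mouse 1, 2 and 3. From lanosterol to cholesterol Indirubin-2 and Indirubin-3 lie at -1.27 and -1.54 and Indirubin-1 at -0.03, while the median over 9713 genes stays between -0.23 and 0.32 in all libraries.

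The comparison of DSS with Control mice addresses what DSS alone did, within the doubt about the Control labels given above. The enzymes of sterol synthesis went both ways: of 17 tested, 11 were higher and 6 lower, with a median log2 fold change of 0.05, where that of all 7482 tested genes was 0.01, and 0.75 beside 0.70 with library size as the only scaling. Over the 31 genes 30 were tested, with 19 higher and 11 lower. No sterol gene passed an adjusted p of 0.05, where 0.214% of all tested genes were higher and 0.495% lower (edgeR). At an unadjusted p under 0.05 there was 1 sterol gene higher and 1 lower, beside 3.48% and 4.05% of all tested genes.

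Npc2, the soluble lysosomal protein that hands cholesterol to NPC1 (ENSMUSG00000021242, chromosome 12, 84801336 to 84819926), lay at 10.3, 13.0 and 17.3 normalized CPM in the Control mice and at 27.1, 24.8 and 30.4 in the DSS mice. Every DSS mouse was above every Control mouse, as was every indirubin-treated mouse at 25.3, 30.2 and 19.8 normalized CPM. The log2 fold change of DSS against Control was 1.05 (SE 0.35, unadjusted p = 0.00961, adjusted p = 0.361 in edgeR) and that of Indirubin against Control 0.92 (SE 0.38, adjusted p = 0.301 in edgeR), and both comparisons share the Control mice. Macrophage markers (8 genes) summed to 83.1 to 152 normalized CPM in the Control mice, 131 to 145 in the DSS mice and 136 to 195 in the indirubin-treated mice. The macrophage sums of DSS and Control mice overlapped, while other marker sums separated. Neutrophil markers and cholangiocyte markers (5 genes) were higher in the DSS mice, the latter at 8.59 to 13.3 beside 3.70 to 5.602 normalized CPM, mainly through Spp1. Acinar markers were lower, at 0 to 3.08 beside 8.28 to 22.7. Stellate cell markers (6 genes) summed lower, at 55.6 to 91.5 beside 94.01 to 161. Lrat, Reln, Col1a1 and Col3a1 were each lower without overlap, while Dcn, the most abundant of that list, and Pdgfrb overlapped. The part of these cell types in the Npc2 levels and in the other differences between DSS and Control mice was not tested.

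Abcg5 was lower in the DSS mice, at 0, 1.59 and 0.366 normalized CPM beside 1.36, 4.93 and 9.99 in the Control mice. DSS-2 lay above Control-1, so the groups overlapped. The log2 fold change was -3.08 (SE 1.22, unadjusted p = 0.0247, adjusted p = 0.515 in edgeR). It was -4.66 without DSS-2 and -2.29 without Control-3 (unadjusted p = 0.191 in edgeR). These counts were few, from 0 to 9 in the DSS mice and from 7 to 41 in the Control mice.

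Without overlap, Idi1, Hsd17b7 and Npc2 were higher in DSS than in Control mice and Scap and Npc1 lower, beside 7.1% and 8.54% of all tested genes higher and lower without overlap. Idi1, at 6.81, 5.11 and 2.68 normalized CPM in the Control mice, had a log2 fold change of 1.02 (SE 0.52, adjusted p = 0.721 in edgeR). Scap lay at 10.7, 14.97 and 7.31 normalized CPM in the Control mice and Npc1 at 3.70, 8.46 and 7.31, both above the DSS values given above. Their log2 fold changes of -1.53 (SE 0.82) and -1.81 (SE 0.93) were -1.004 and -1.30 without DSS-2, the library with no count of either. Msmo1 and Insig2 overlapped between these groups, with log2 fold changes of -1.01 (SE 0.64) and 0.51 (SE 0.35), and that of Msmo1 was -0.53 without DSS-2 and -1.58 without DSS-3. Insig2 was at 0.31 without DSS-3. Fdps, farnesyl pyrophosphate synthase, had 0, 1 and 0 counts in the Control mice and did not pass the filter on low counts there. With 5, 14 and 7 counts in the DSS mice and 12, 24 and 0 with indirubin, its mean was at least 2.02-fold and 2.26-fold higher than a floor of 3 counts per Control library, which covers counting error only. The first bound rests on DSS-2, without which it was 1.003-fold, and without Indirubin-1 the second was 1.60-fold.

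**Figure D4:**
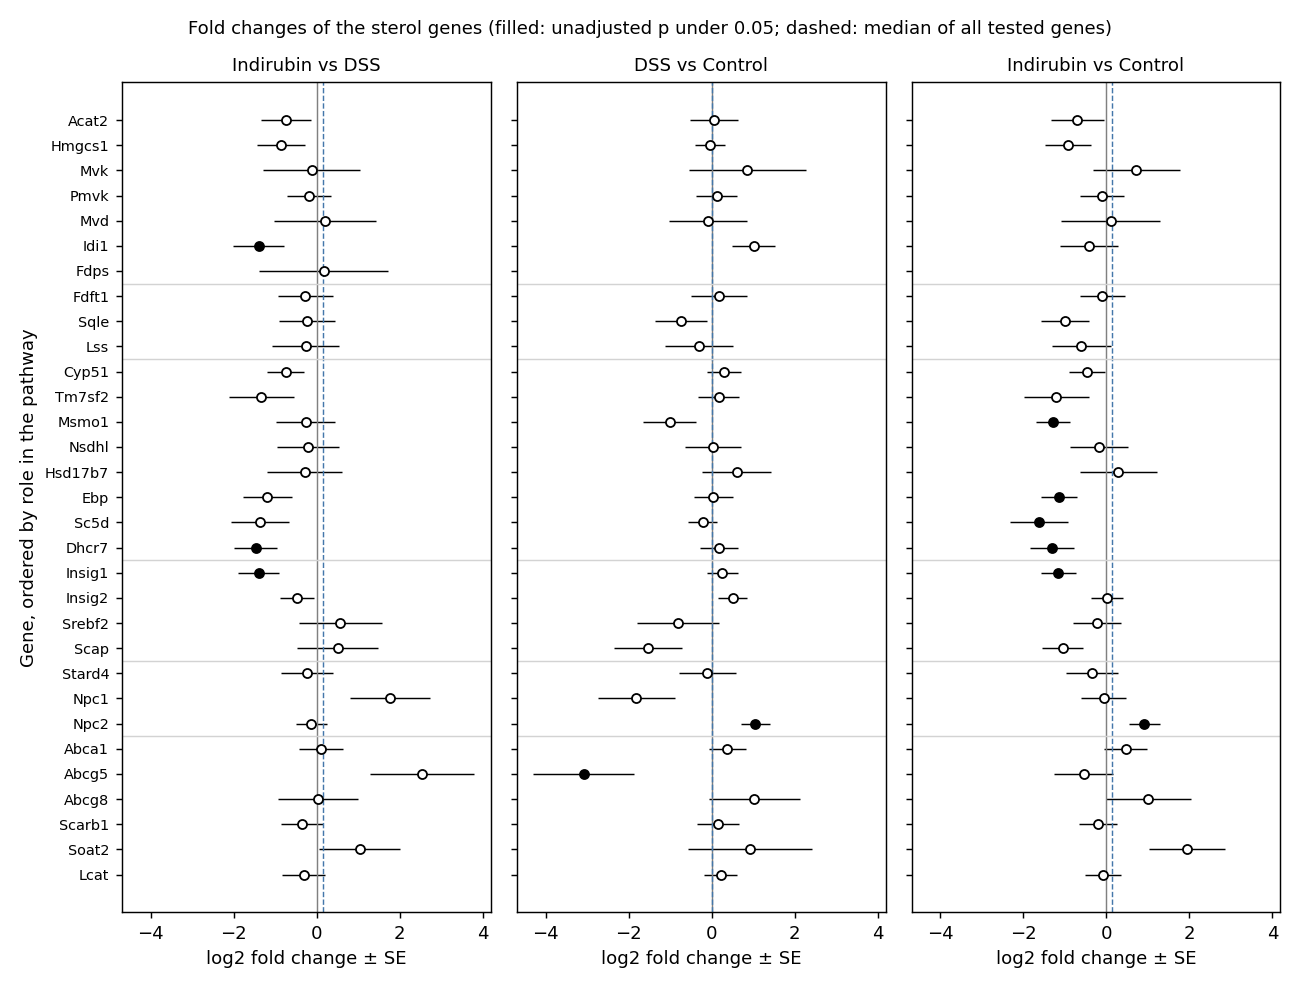
Log2 fold changes with their standard errors from edgeR are drawn for each tested sterol gene in 3 comparisons of 3 mice with 3, filled where the unadjusted p was under 0.05, with a dashed line at the median of all tested genes. In the comparison of Indirubin with DSS the 8 genes from Cyp51 to Dhcr7 all lie below 0, while in that of DSS with Control they lie on both sides.

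The comparison of Indirubin with Control mice sets indirubin and DSS together against water, and shares its mice with both comparisons above. Its lowest log2 fold change was that of Sc5d, a late enzyme. Of the 8 genes from lanosterol to cholesterol 7 were lower, 4 of them at an unadjusted p under 0.05 (edgeR), with a median log2 fold change of -1.17, where that of all 8059 tested genes was 0.13. With library size as the only scaling, which moved the median of all tested genes to 1.11, this median was -0.35, with 5 of 8 genes lower. Over synthesis as a whole 14 of 17 tested genes were lower, with a median of -0.61, which that scaling turned to 0.32. Of the 30 tested sterol genes 0 passed an adjusted p of 0.05, where 0.062% of all tested genes were higher and 0.174% lower, and at an unadjusted p under 0.05 there were 5 lower and 1 higher, beside 6.38% and 7.45%. The groups did not overlap for 3 lower and 2 higher sterol genes, beside 9.32% and 12.2% of all tested genes.

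Msmo1 (ENSMUSG00000031604, chromosome 8, 65171173 to 65186826) had the smallest p of the 30, with 15.2, 21.7 and 9.99 normalized CPM in the Control mice and 7.34, 6.23 and 5.36 with indirubin. All 3 indirubin-treated mice were below all Control mice and close to each other. Its log2 fold change was -1.28 (SE 0.41, unadjusted p = 0.00906, adjusted p = 0.187 in edgeR). Ebp, at 16.0, 22.0 and 17.5 normalized CPM in the Control mice, was likewise lower without overlap, with a log2 fold change of -1.14 (SE 0.43, adjusted p = 0.254 in edgeR). Insig1, at 28.8, 40.2 and 23.9 normalized CPM in the Control mice, was lower without overlap, with a log2 fold change of -1.15 (SE 0.42, adjusted p = 0.238 in edgeR).

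Dhcr7 lay at 10.5, 16.0 and 5.36 normalized CPM in the Control mice, and Indirubin-1 was above Control-3 (log2 fold change -1.31, SE 0.52). Sc5d had a log2 fold change of -1.62 (SE 0.71, adjusted p = 0.322 in edgeR), and of -1.20 without Indirubin-3. Without Indirubin-1, 3 sterol genes passed an adjusted p of 0.05 in that edgeR test: Sc5d at a log2 fold change of -3.41 (adjusted p = 0.000990), Insig1 at -1.75 (adjusted p = 0.0174) and Ebp at -1.76 (adjusted p = 0.0266). At that threshold 3.29% of 9721 tested genes were then lower and 1.49% higher. Tm7sf2 and Sqle, squalene epoxidase, had log2 fold changes of -1.20 (SE 0.78) and -0.99 (SE 0.58), both with overlapping groups. That of Tm7sf2 was -2.78 without Indirubin-1 and -0.69 without Indirubin-3, and that of Sqle was -0.54 without Control-1 and 0.0128 with library size as the only scaling. Hmgcs1 lay at 28.8, 56.7 and 40.4 normalized CPM in the Control mice, and Indirubin-1 at 37.5 was within their range. Its log2 fold change was -0.93 (SE 0.55), -1.68 without Indirubin-1 and -0.48 without Indirubin-3.

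Soat2, which esterifies cholesterol in the hepatocyte for storage and secretion, had 7, 15 and 0 counts in the Control mice and 17, 82 and 64 with indirubin. At 1.36, 2.64 and 0 normalized CPM against 3.12, 6.72 and 5.53, every indirubin-treated mouse was above every Control mouse. With 1 Control library above the limit of the filter, Soat2 was tested only because of its counts with indirubin. The log2 fold change was 1.94 (SE 0.91, adjusted p = 0.374 in edgeR), 1.36 without Control-3 and 2.82 without Control-2. In the DSS mice Soat2 ranged from 0 to 4.74 normalized CPM and overlapped both other groups. Scap was lower than in Control mice, with a log2 fold change of -1.05 (SE 0.50), -1.69 without Indirubin-1, and an overlap of Indirubin-1 with Control-3.

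Among the other 30 sterol genes, those whose log2 levels over the 9 libraries were most like those of Sc5d were Tm7sf2 (Pearson's r = 0.91), Dhcr7 (0.895) and Insig1 (0.855). These are descriptions over 9 libraries that share the depth and marker differences given above.

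Other genes of sterol metabolism, listed by role and not by how they moved, were compared in the same fits, where 3.22% of all tested genes were lower with indirubin than with DSS and 4.45% higher at an unadjusted p under 0.05. Of 12 genes of precursor supply and the prenyl branch found in the table, 11 were tested between Indirubin and DSS mice, with 1 lower and 0 higher at an unadjusted p under 0.05 in the edgeR test. Of 12 genes of SREBP processing and sterol-regulated degradation 9 were tested, with 1 lower and 0 higher. Of 21 genes of the LXR pathway and sterol handling 16 were tested, with 1 lower and 0 higher, and none of the 3 lists had a gene at an adjusted p under 0.05. Lipc, hepatic lipase, lay at 22.2, 2.13 and 4.92 normalized CPM with indirubin, at 22.9, 51.0 and 75.2 in the DSS mice and at 50.6, 52.3 and 50.2 in the Control mice. Indirubin-2 and Indirubin-3 were the lowest libraries here as well, and Indirubin-1 lay just below DSS-1 (log2 fold change -2.37, SE 0.75, adjusted p = 0.456 in edgeR).

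Syvn1, the ubiquitin ligase of endoplasmic reticulum degradation, lay at 2.39, 2.46 and 2.85 normalized CPM with indirubin and at 10.8, 9.57 and 6.67 in the DSS mice. Here the 3 indirubin-treated mice were close together and all below the DSS mice (log2 fold change -1.80, SE 0.52, adjusted p = 0.436 in edgeR). Aacs, acetoacetyl-CoA synthetase, was at 1.69 ± 1.25 with indirubin and 5.99 ± 2.54 normalized CPM in the DSS mice (SD, n = 3), without overlap.

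Between DSS and Control mice 13 genes of the LXR list, 6 of SREBP processing and 11 of precursor supply were tested, with 1, 1 and 0 lower and 0 higher at an unadjusted p under 0.05 in edgeR, where 4.05% of all tested genes were lower and 3.48% higher. Between Indirubin and Control mice 15, 7 and 10 were tested, with 3, 1 and 0 lower and 0 higher, where 6.38% were lower and 7.45% higher. Scp2, the peroxisomal sterol carrier protein and thiolase, was at 352 ± 43.7 normalized CPM in the Control mice, 184 ± 8.97 in the DSS mice and 142 ± 52.1 in the indirubin-treated mice. Both treated groups were below the Control mice without overlap, with log2 fold changes of -0.90 (SE 0.28, adjusted p = 0.326) and -1.29 (SE 0.40, adjusted p = 0.173) in edgeR. Erlin1, of the complex that degrades sterol-regulated proteins, had log2 fold changes of -1.56 (SE 0.70) and -2.23 (SE 0.72) against the same Control mice. Lipc had a log2 fold change of -2.41 (SE 0.67) between Indirubin and Control mice. Lipa, the lysosomal acid lipase, completed the 4 lower genes of that comparison at -1.17 (SE 0.51) and was named after its values were seen. Acat1, the mitochondrial thiolase, was lower in DSS than in Control mice without overlap, at a log2 fold change of -0.54 (SE 0.32).

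Among the genes of these lists with higher values, Nr1h2, which encodes LXR beta, had the smallest p against Control. It lay at 2.33, 3.88 and 0 normalized CPM in the Control mice, at 7.11, 5.14 and 5.48 in the DSS mice and at 4.77, 6.72 and 5.53 with indirubin. Both treated groups were above the same Control mice without overlap, with log2 fold changes of 1.55 (SE 0.90, adjusted p = 0.821) and 1.46 (SE 0.87, adjusted p = 0.504) in edgeR. The next were Aacs at 1.05 (SE 0.64) and Syvn1 at 0.82 (SE 0.53) for DSS against Control, and Nus1 at 0.71 (SE 0.50) and Mbtps1 at 0.72 (SE 0.55) for Indirubin against Control. Stard3, Mbtps2 and Pltp had the smallest p among higher genes between Indirubin and DSS mice, at log2 fold changes of 1.66 (SE 1.49), 1.47 (SE 1.45) and 0.56 (SE 0.60). Mbtps2 had 9, 0 and 9 counts in the DSS mice and 13, 14 and 22 with indirubin. Like Abcg5, it was tested only because of its counts with indirubin, so a difference was built into its being tested.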

How the data were processed

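RNA of whole liver from 9 mice was extracted by the authors with the RNeasy Plus Micro Kit, and libraries from 400 ng of RNA were read on a DNBSEQ instrument, with the mouse build GRCm39 per the labels. The aligner and the counting program are not given in the sources used here. The authors deposited whole-number counts per gene without normalization. The FPKM values deposited by the authors can be computed from these counts, gene lengths and a library size that differs from the total, and served as a check of the counts. In every library 100% of FPKM values at 10 or more counts were within 1% of that relation. The fold changes, p-values and q-values deposited by the authors compare the groups and were not used, and neither were the lists of genes detected in a single group.

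The 6 libraries of each comparison were fitted with edgeR 4.0.16 (limma 3.58.1, data.table version 1.17.8, R 4.3.3): TMM, filterByExpr with a minimum count of 10 and total of 15, glmQLFit and glmQLFTest over all genes, with Benjamini-Hochberg adjustment. Total counts were 6514863 to 7944684 per library and nuclear counts 569044 to 2132208, so genes with few counts carry wide errors. The SE is the log2 fold change divided by the square root of F. Differences from a group mean used log2(CPM + 0.4). Alternatives were DESeq2 size factors, library size alone, no filter, at least 10 counts in every library, all 9 libraries in 1 fit, the replicate number as a block, the Wald test of DESeq2 1.42.0, no mitochondrial genes, and each library left out. Correlations between mice of the same number lay between -0.0258 and 0.0271, so the groups were taken as unpaired. The fit was tested on simulated data. With 3 mice against 3 an exact two-sided permutation test cannot go below 0.10. P-values rest on the spread between the 6 mice of each comparison. All 31 genes are accounted for, and of the other sterol genes up to 3 with the smallest p each way are named. Fold changes of single genes among the 31 are printed where the unadjusted p was under 0.2. That of Hsd17b7 between Indirubin and DSS mice is printed besides, for its change of sign. The members and lists were chosen with earlier results of these data known. Promoters are from RefSeq, build GRCm38.p6, and their coordinates are not those of the count table. Figures were drawn with matplotlib 3.10.9 in Python 3.11.15.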

Additional observations from a re-analysis of the deposited data

How the results depend on the processing

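Leaving out Indirubin-1 moved the counts of genes past the threshold, and library size as the only scaling moved the medians. The count of sterol genes at an adjusted p under 0.05 went from 0 to 1 against DSS and from 0 to 3 against Control, and the median log2 fold change of the synthesis genes against DSS from -0.28 to -0.92. Single genes past the threshold without Indirubin-1 were Sc5d against DSS at -3.15 and Sc5d, Ebp and Insig1 against Control at -3.41, -1.76 and -1.75. Without a filter on low counts the count against Control was 1, Sc5d at -1.65 (adjusted p = 0.0356 in edgeR). With library size as the only scaling the synthesis median was 0.75 for DSS against Control, where that of all tested genes was 0.70, and 0.32 for Indirubin against Control, where that of all tested genes was 1.11, and Sqle in the latter comparison turned to 0.0128. For Indirubin against DSS that scaling gave -0.26, with all tested genes at 0.43. The cause of these shifts was not tested. Across fits that each left out a library, the synthesis median lay between -0.92 and -0.27 for Indirubin against DSS, -0.06 and 0.25 for DSS against Control and -1.16 and -0.29 for Indirubin against Control, and the counts of genes past the threshold lay between 0 and 1, 0 and 0, and 0 and 3. The replicate number as a block left the count at 0 in all 3 comparisons and moved the synthesis medians to -0.68, 0.04 and -0.55, while the numbers did not pair the mice. Of 28 fold changes with an unadjusted p under 0.2, that of Sqle was the single value to change sign. It did so under library size alone, where the median of all tested genes was 1.11. Of the other 21, 23 and 19 in the same order of comparisons, 18, 16 and 13 changed sign under at least 1 alternative other than library size alone, which shifts all genes together, and none passed an adjusted p of 0.05 under any. Nuclear counts of 569044 in the shallowest library limit genes such as Fdps, Mvk, Abcg5 and Abcg8, for which small differences were not detectable.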
